A study of Mus musculus with 5 samples.

Results

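The 9 genes described here are known to be induced by type I interferon and were followed across 5 mouse co-culture arrays: Ifit1, Ifit2, Ifit3, Isg15, Usp18, Rsad2, Mx1, Ifi204 and Ifi202b. They were found by their symbol in the platform annotation, which gave 11 probe sets of 12488 on the array, or 9 genes of 8251. The study asked how loss of Fos, which encodes part of the AP-1 transcription factor, affects cultures that make osteoclasts, the bone-resorbing cells. Every dish held haematopoietic cells on ST2-T stromal cells for 6 days with dexamethasone, a glucocorticoid, and 1,25-dihydroxyvitamin D3, and total RNA was taken from both cell kinds together. The 3 uninfected groups were Fos+/+ spleen, Fos-/- spleen and Fos+/+ bone marrow. The 2 virus groups were Fos-/- spleen cells infected with a deltaNFAT virus or with a GFP (green fluorescent protein) virus. The labels give neither the dose and kind of the viruses nor the structure of deltaNFAT, and every virus group is Fos-/- spleen. Each group had 1 array, so no value below has a replicate error and no test was run. The arrays of one side are not replicates either, since the uninfected ones differ in Fos genotype and tissue.

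Type I interferons are secreted when cells sense foreign nucleic acid, and they signal through the receptor chains Ifnar1 and Ifnar2 and the kinases Jak1 and Tyk2. A response element upstream of the target genes then receives the signal, and the induced proteins block several steps of viral replication. In osteoclast precursors the same pathway is known as a brake on differentiation, one that acts on Fos protein.

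The response element can be read in the promoters of the members, and 4 are shown because they hold it. The RefSeq promoter table (build GRCm38.p6) matched 6 of the 9 members. The 250 bases upstream of each annotated start were searched on both strands for the core letters GAAANN followed by GAAA (N is any base), which read TTTCNN followed by TTTC on the opposite strand. Ifit1, Ifit3, Isg15 and Rsad2 held them, against 3.39% of the 6576 array genes with a promoter in the table. The 180 bases upstream of each start follow, 5′ to 3′ on the gene's strand, with the matches in capitals. They lie at chr19:34640709-34640888 (plus strand) for Ifit1, chr19:34583349-34583528 (plus) for Ifit3, chr4:156200819-156200998 (minus) for Isg15 and chr12:26456453-26456632 (minus) for Rsad2.
Ifit1: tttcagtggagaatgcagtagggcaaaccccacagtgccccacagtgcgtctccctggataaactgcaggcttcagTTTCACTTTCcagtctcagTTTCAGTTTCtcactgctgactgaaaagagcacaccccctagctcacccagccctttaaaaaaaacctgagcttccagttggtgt
Ifit3: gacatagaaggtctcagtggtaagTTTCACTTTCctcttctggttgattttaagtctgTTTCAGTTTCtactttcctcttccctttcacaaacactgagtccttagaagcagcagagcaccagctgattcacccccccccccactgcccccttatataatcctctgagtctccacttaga
Isg15: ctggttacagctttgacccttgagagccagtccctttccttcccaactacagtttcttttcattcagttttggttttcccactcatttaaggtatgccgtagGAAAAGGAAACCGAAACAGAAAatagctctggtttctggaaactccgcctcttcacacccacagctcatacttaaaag
Rsad2: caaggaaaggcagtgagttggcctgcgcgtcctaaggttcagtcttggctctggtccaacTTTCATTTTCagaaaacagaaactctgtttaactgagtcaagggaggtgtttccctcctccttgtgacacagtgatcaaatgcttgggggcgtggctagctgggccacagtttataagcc

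Ifit1 and Ifit3 each carried 2 separate matches on the opposite strand, TTTCACTTTC and TTTCAGTTTC in both genes, starting 104 and 85 bases before the start of Ifit1 and 156 and 122 bases before that of Ifit3. Isg15 carried 3 overlapping matches on its own strand between 78 and 57 bases before its start. Rsad2 carried 1, TTTCATTTTC. The 2 windows of Ifit2 and the window of Ifi202b held no match of these letters. Among 90 other interferon pathway genes on the array, 77 had a promoter in the table and 21 of them (27.3%) held a match.

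**Figure D1:**
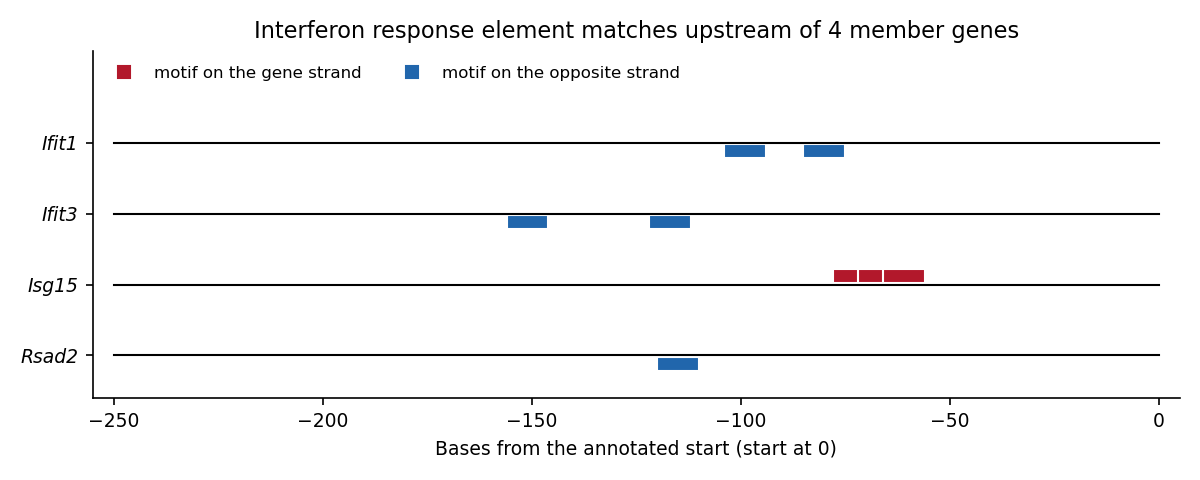
Positions of the matches to GAAANN followed by GAAA within the 250 bases upstream of the annotated start (horizontal axis, bases) of Ifit1, Ifit3, Isg15 and Rsad2. Boxes above a line are matches on the gene's strand and boxes below it matches on the opposite strand; all lie between 156 and 57 bases before the start, and the 3 boxes of Isg15 overlap.

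In each array 58.3 to 62.3% of probe sets read above 19.8, an intensity used here as the floor, and lower readings were raised to it before any ratio. The 1st percentile of an array, taken here as a measure of its noise, lay between -133 and -77.6. To be counted, a gene needed a ratio of 2-fold or more and a reading of 39.6, which is 2 times the floor, on its brighter side. Ratios whose dimmer side lay at or under the floor are lower bounds and carry the words "at least". The arrays carried markers of stromal and myeloid cells (Col1a1 from 3417 to 4185, Lyz2 from 1880 to 2959), and 5 of 9 T and NK cell markers, Cd3d, Cd3e, Cd3g, Cd8a and Gzma, were under the floor everywhere. The other 4 reached up to 167 (Cd4), 159 (Zap70), 90.8 (Klrd1) and 62.6 (Gzmb), each in an uninfected array.

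Of the 9 members, 8 read higher in both virus arrays than in any uninfected array, and the other, Ifit2, was too dim to place. Of the 5567 genes with an array at 39.6 or more, 14.0% lay without overlap to the higher side and 21.1% to the lower. A stricter count asked that the lower virus array be at least 2-fold above the highest uninfected one. Ifit1, Ifit3, Isg15, Usp18 and Mx1 met it, 5 of 9, where 39 of the 5567 genes (0.701%) did. These 5 and Rsad2 reached 39.6 only in virus arrays, so they entered the 5567 genes through the side where they are high. No member read 39.6 in every uninfected array, so none could be counted lower, as 0.593% of the genes were. The median log2 gap of the 9 members was 1.01, and that of all 8251 genes -0.30. For 6 of the 9, under the floor in all uninfected arrays, the gap could not be below 0, so the 2 medians are not on equal terms. The stricter count fell to 1 (Isg15) with the floor raised to 65.1 and to 0 with a floor of 98.8, the size of the noise. It was 8 without the bone marrow array.

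**Figure D2:**
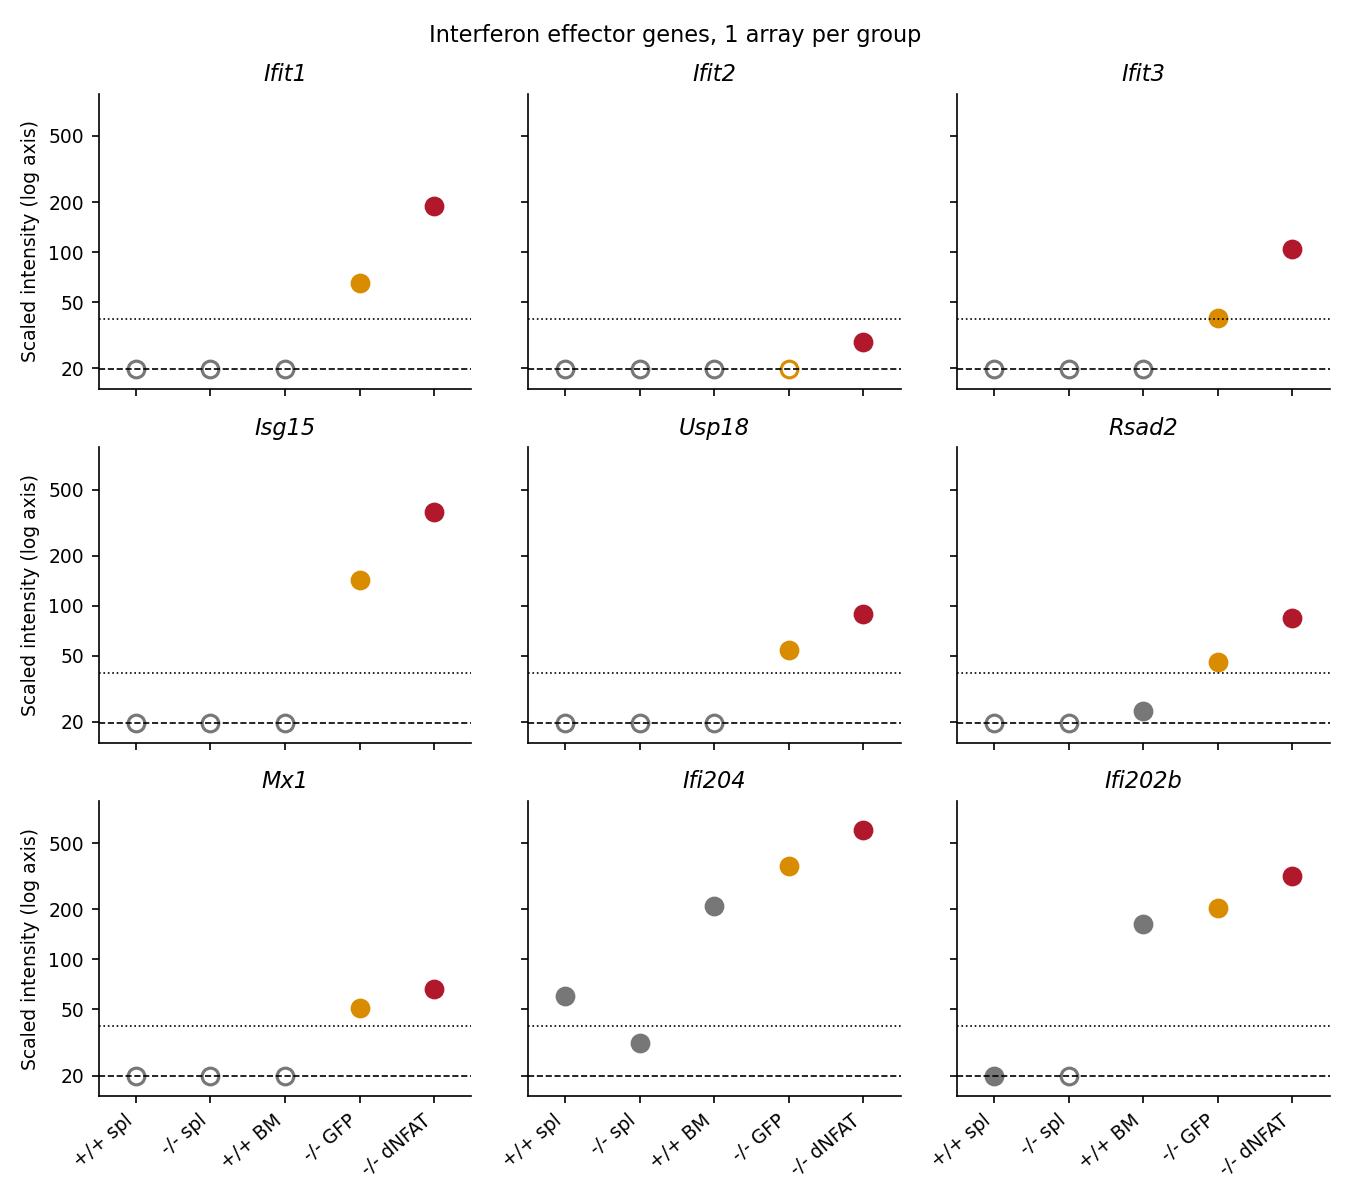
Scaled intensity (log axis) of the 9 members in each array, with grey for uninfected, orange for GFP virus and red for deltaNFAT virus (spl, spleen; BM, bone marrow; dNFAT, deltaNFAT). Each point is 1 array, open points lie at or under the floor (dashed line, 19.8) and the dotted line is 39.6; the red point is highest in all 9 panels, and bone marrow is the highest uninfected array for Ifi204 and Ifi202b.

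The Ifit genes encode proteins that bind foreign RNA and hold back its translation, and the 3 studied here are annotated on chromosome 19. Ifit1 (probe set 100981_at) read -2.40 in Fos+/+ spleen, -5.40 in Fos-/- spleen, -25.0 in bone marrow, 65.4 with GFP virus and 189 with deltaNFAT virus. No uninfected array showed Ifit1 above the floor, and both virus arrays did. Against Fos-/- spleen without virus it was at least 3.30-fold higher with GFP and at least 9.56-fold higher with deltaNFAT.

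For Ifit3 (93956_at) the virus arrays had the same order. It read 8.50, 0.20 and -14.4 in Fos+/+ spleen, Fos-/- spleen and bone marrow, 39.9 with GFP and 105 with deltaNFAT. The GFP value stands barely above 39.6, so the gap of at least 2.02-fold rests on a reading near both limits. It was under 2-fold when either uninfected spleen array was left out and the floor set anew. Ifit2 (103639_at) read -12.4, -14.0 and -6.30 without virus, 17.4 with GFP and 28.7 with deltaNFAT. Only the deltaNFAT array put Ifit2 above the floor, and it did not reach 39.6.

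Isg15 is a ubiquitin-like protein that is attached to other proteins, and Usp18 is the protease that removes it and also damps signalling at the interferon receptor. Isg15 (98822_at) read -2.10, -62.8 and -48.4 in Fos+/+ spleen, Fos-/- spleen and bone marrow, 143 with GFP and 367 with deltaNFAT. Its gap of at least 7.20-fold between the GFP array and the uninfected arrays was the widest of the members and rank 3 of the 5567 genes. None of the uninfected readings of Isg15 was above 0. Usp18 (95024_at) read -3.10, 7.50 and 10.4 without virus in the same order, 54.3 with GFP and 89.3 with deltaNFAT. Its gap was at least 2.74-fold, rank 16.

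Rsad2 encodes viperin, a radical SAM enzyme that makes a chain-terminating nucleotide, and Mx1 a dynamin-like GTPase that traps viral nucleoprotein. Rsad2 (104177_at) read 14.4, 17.0 and 23.2 in Fos+/+ spleen, Fos-/- spleen and bone marrow, 46.2 with GFP and 84.1 with deltaNFAT. The groups did not overlap, but the GFP array stood 1.99-fold above bone marrow and so just missed 2-fold. After quantile normalization the gap was 1.25 on the log2 scale and passed. Mx1 (98417_at) read 1.90, 12.6 and 13.3 without virus, 50.9 with GFP and 66.1 with deltaNFAT, a gap of at least 2.57-fold. RefSeq lists Mx1 of the reference strain as a transcribed pseudogene, and many laboratory strains are known to carry a defective allele, so this probe set reports RNA and not a working protein. The strain of these mice is not given in the labels.

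Ifi204 and Ifi202b belong to the HIN-200 family, a cluster of near copies on chromosome 1 whose proteins bind DNA and take part in sensing it and in growth control. They were the only members whose bone marrow reading reached 39.6. Ifi204 (98465_f_at) read 60.1 in Fos+/+ spleen, 31.3 in Fos-/- spleen, 210 in bone marrow, 367 with GFP and 597 with deltaNFAT. Against Fos-/- spleen without virus it was 11.7-fold higher with GFP and 19.1-fold with deltaNFAT, but against bone marrow the GFP array stood only 1.74-fold higher. These values rest on the brightest of its 3 probe sets. In the mean of all 3, the log2 ratios to Fos-/- spleen were 1.07 with GFP and 1.88 with deltaNFAT, in place of 3.55 and 4.25, and the log2 gap to bone marrow and the others was 0.014 in place of 0.80.

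Ifi202b (94774_at) read 19.9 in Fos+/+ spleen, 3.40 in Fos-/- spleen, 164 in bone marrow, 203 with GFP and 319 with deltaNFAT. It was at least 10.3-fold and at least 16.1-fold above Fos-/- spleen with the respective viruses, and 1.24-fold above bone marrow in the GFP array. Bone marrow thus lay close to the GFP array for Ifi202b and below the deltaNFAT array, and both spleen arrays without virus were at or near the floor.

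The probe sets of the HIN-200 genes did not all tell the same. A second probe set of Ifi204 (98466_r_at) read 7.40, 11.3 and 33.1 without virus, 25.9 with GFP and 73.3 with deltaNFAT, so that GFP lay below bone marrow. The third (161180_r_at) went the other way, with 136, 153 and 123 without virus, 93.0 with GFP and 109 with deltaNFAT. All probe sets of Ifi204 carry a letter suffix, which marks probes that may be shared or that broke the design rules. A further probe set that the annotation gives to Ifi204 together with Mndal, Ifi211 and Ifi205 is no member, and it read 22.6, 13.3, 96.4, 322 with GFP and 549 with deltaNFAT. Another, given to Ifi202b and LOC100044068 together, read 37.4 with GFP, 66.0 with deltaNFAT and at or near the floor in the others. Which gene of the cluster these arrays measured cannot be told from them.

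Without virus, no member was counted between the Fos genotypes. Only Ifi204 (60.1 in Fos+/+ and 31.3 in Fos-/- spleen) was bright enough in either spleen array to be counted, and it stayed under 2-fold. The other members were too dim there to be counted either way, so the comparison cannot tell whether they differed. Of the 4997 genes bright enough, 6.48% were higher in Fos+/+ spleen and 6.42% lower. Of the members, 6 were under the floor in all 3 uninfected arrays, so a difference among these could not be seen. Rsad2 was under it in both spleen arrays (14.4 in Fos+/+ and 17.0 in Fos-/-), and Ifi202b read 19.9 and 3.40 there. Ifi204 was 1.92-fold higher in Fos+/+ spleen. In bone marrow over Fos+/+ spleen, Ifi204 was 3.50-fold and Ifi202b 8.22-fold higher, 2 of 9 members with 0 lower, where 13.2% of 5291 genes were higher and 7.18% lower. The other members were too dim in both of these arrays to be counted either way.

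**Figure D3:**
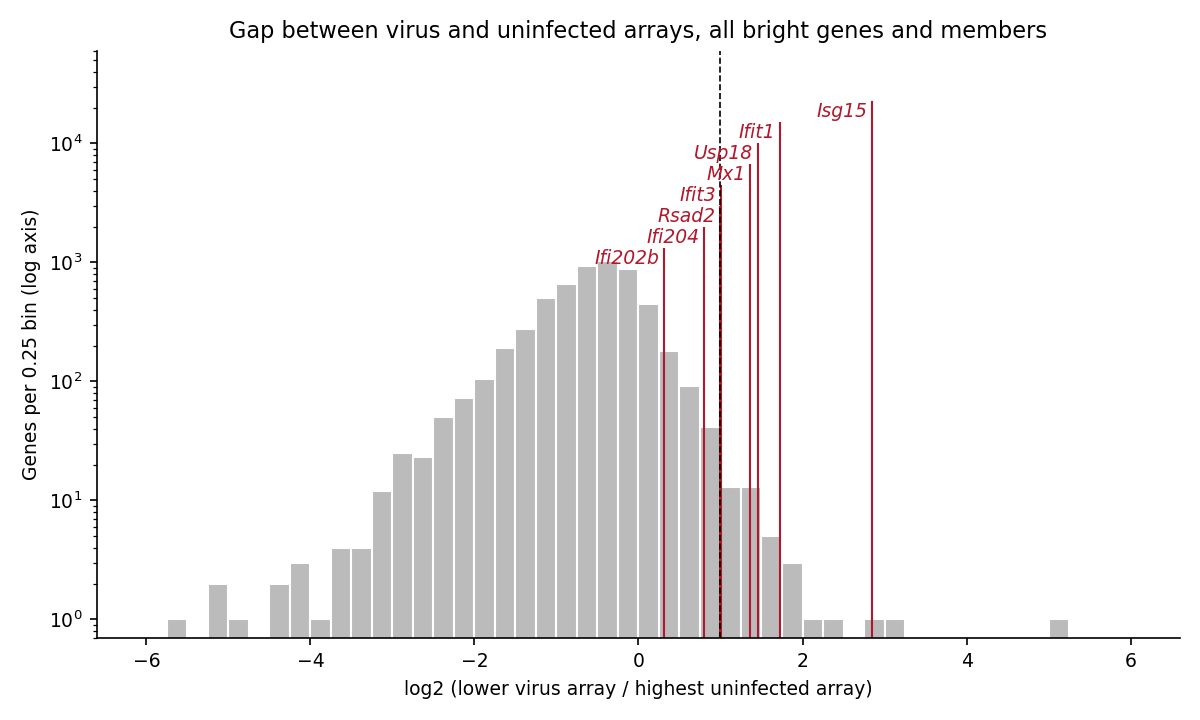
Histogram of the log2 ratio of the lower virus array to the highest uninfected array for the 5567 genes with an array at 39.6 or more (bars, genes per bin, log axis), with the 8 members among them as red lines. The dashed line marks 2-fold; Isg15 lies at 2.85, Ifit1 at 1.72 and Ifi202b at 0.31, and values at the floor are included as the floor.

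Set against Fos-/- spleen without virus, the array that matches in genotype and tissue, 8 of 9 members were counted higher with GFP virus, where 10.3% of 5113 genes were higher and 7.06% lower. The same 8 were counted higher with deltaNFAT virus, where 11.0% of 5180 genes were higher and 6.66% lower. Only Ifit2 was not counted in either ratio. All members read under 39.6 in Fos-/- spleen without virus (Ifi204 highest, at 31.3). The 8 thus entered these genes through the virus array, and no member could be counted lower. Both ratios share the uninfected array, so they are not independent. The median log2 ratio of the 9 members was 1.46 with GFP and 2.40 with deltaNFAT, and that of all genes 0 in each. For all members but Ifi204 the uninfected reading was under the floor, so the medians move with it and were 0 and 0.68 at the floor of 65.1.

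The deltaNFAT array read higher than the GFP array for all 9 members. It was the highest of the 5 arrays for each, an order that 13.2% of the 5567 genes showed. For 8 of 9 the GFP array came second, as for 6.61% of the genes. That order requires both virus arrays to lie above all uninfected ones, which was already counted. Of the 780 genes that did so, 368 had deltaNFAT highest. The sizes differed among the members. The ratio of deltaNFAT to GFP was 2.89-fold for Ifit1, 2.62-fold for Ifit3 and 2.57-fold for Isg15. These 3 members were counted higher and 0 lower, where 3.54% of 5032 genes were higher and 2.58% lower. Ifit3 was no longer counted at the floor of 65.1 (log2 ratio 0.68), and at the floor of 98.8 Ifit1 (0.94) and Ifit3 (0.084) were not, which left Isg15. Rsad2 at 1.82-fold, Usp18 at 1.64-fold, Ifi204 at 1.63-fold, Ifi202b at 1.57-fold and Mx1 at 1.30-fold stayed under 2-fold. The median log2 ratio of the members was 0.72, or 0.084 at the floor of 98.8, and that of all genes 0. Whether the dishes received equal amounts of the viruses is not given, so cargo and dose cannot be told apart.

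Other genes of the pathway were read from 8 lists ordered by role. Of the interferons themselves, 9 of 19 listed genes were on the array and 0 were counted either way between virus and uninfected arrays. Ifnb1 was under the floor in all 5 arrays. Ifna5 read 124 in Fos+/+ spleen, 109 in Fos-/- spleen, 75.3 in bone marrow, 68.9 with GFP and 80.3 with deltaNFAT. Ifna2, Ifnab and Ifna4 were not counted either, and Ifna genes are close copies that probe sets may not separate. Ifna9, named after its values were seen, was the only ligand without overlap to the virus side, at 34.4 with deltaNFAT and 47.5 with GFP against at most 6.70.

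Receptors and kinases showed no gap of 2-fold, with 0 of 8 counted. Ifnar1, a chain of the type I receptor, read 94.3, 136 and 75.7 in Fos+/+ spleen, Fos-/- spleen and bone marrow, 205 with GFP and 164 with deltaNFAT, a gap of 1.20-fold. Ifngr1, of the interferon gamma receptor, had a gap of 1.47-fold and Jak1 one of 1.04-fold, while the arrays overlapped for Il10rb. Among 11 transcription factors and inhibitors, Irf9 was the 1 counted. Irf9, a DNA-binding factor of the interferon response, read 86.6, 98.8 and 23.2 without virus, 232 with GFP and 243 with deltaNFAT. Irf7, which amplifies interferon production, read 56.0, 69.3 and 55.7 without virus, 131 with GFP and 189 with deltaNFAT, a gap of 1.89-fold. Pias1 stood at 1.14-fold and Irf8 at 1.05-fold. The feedback inhibitor Socs1 lay lower in both virus arrays (55.0 and 59.0) than in the others (64.7 to 104), and Ptpn6, Irf1 and Irf5 overlapped.

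Of 7 sensors and adaptors, 1 was counted. It was Ifih1, the sensor of long double-stranded RNA also called MDA5, at 111 with GFP and 145 with deltaNFAT against 52.2 in bone marrow and less than 0 in both spleens. The double-stranded RNA-activated kinase Eif2ak2 (PKR) had a gap of 1.49-fold, the RNA editing enzyme Adar of 1.26-fold, the adaptor Myd88 of 1.15-fold and the kinase Tbk1 of 1.13-fold. In the list of 29 other effectors, 15 lay without overlap to the virus side and 1 to the other. Of the 5567 genes, 14.0 and 21.1% did. Among the 29, 1 was counted. Trim30a, the counted one, read 10.1, 20.2 and 36.5 without virus, 114 with GFP and 148 with deltaNFAT. Gaps under 2-fold were those of Ifi27l2a (1.60-fold), the nucleotide hydrolase Samhd1 (1.46-fold), Tor3a (1.41-fold), Ly6e (1.33-fold) and the membrane protein Ifitm3 (1.14-fold). Ifi30, a lysosomal thiol reductase, was highest in Fos+/+ spleen at 1034 and read 270 with GFP and 328 with deltaNFAT.

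The interferon-inducible GTPases, which attack the vacuoles of parasites and bacteria, had 4 of 9 counted and a median gap of 0.55 on the log2 scale. Iigp1 (at least 5.50-fold), Ifi47 (at least 3.44-fold), Irgm2 (2.75-fold) and Irgm1 (2.39-fold) were the 4, and Gbp7 stood at 1.46-fold. Irgm2 read 219 with each virus. Antigen processing had 0 of 10 counted. B2m, the light chain of MHC class I, stood 1.58-fold above the highest uninfected array, H2-D1 1.42-fold, Tap1 and H2-K1 1.27-fold each, and Tapbp overlapped. Of 7 interferon-inducible chemokines, Ccl2 (2.75-fold) and Ccl7 (2.67-fold) were counted, Ccl8 had a gap of 1.79-fold, and Ccl12 read 165 with deltaNFAT but 11.6 with GFP. Across the 8 lists 9 of 90 genes were counted higher and 0 lower, where 0.701 and 0.593% of the 5567 genes were. Without overlap, 43 lay higher and 2 lower, where 14.0 and 21.1% of the 5567 genes did. The lists' median log2 gap was 0, and that of all 8251 genes -0.30. A gene under the floor in all uninfected arrays cannot have a gap below 0. The lists were chosen with earlier results of these data known, so these counts are not independent of the data.

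**Figure D4:**
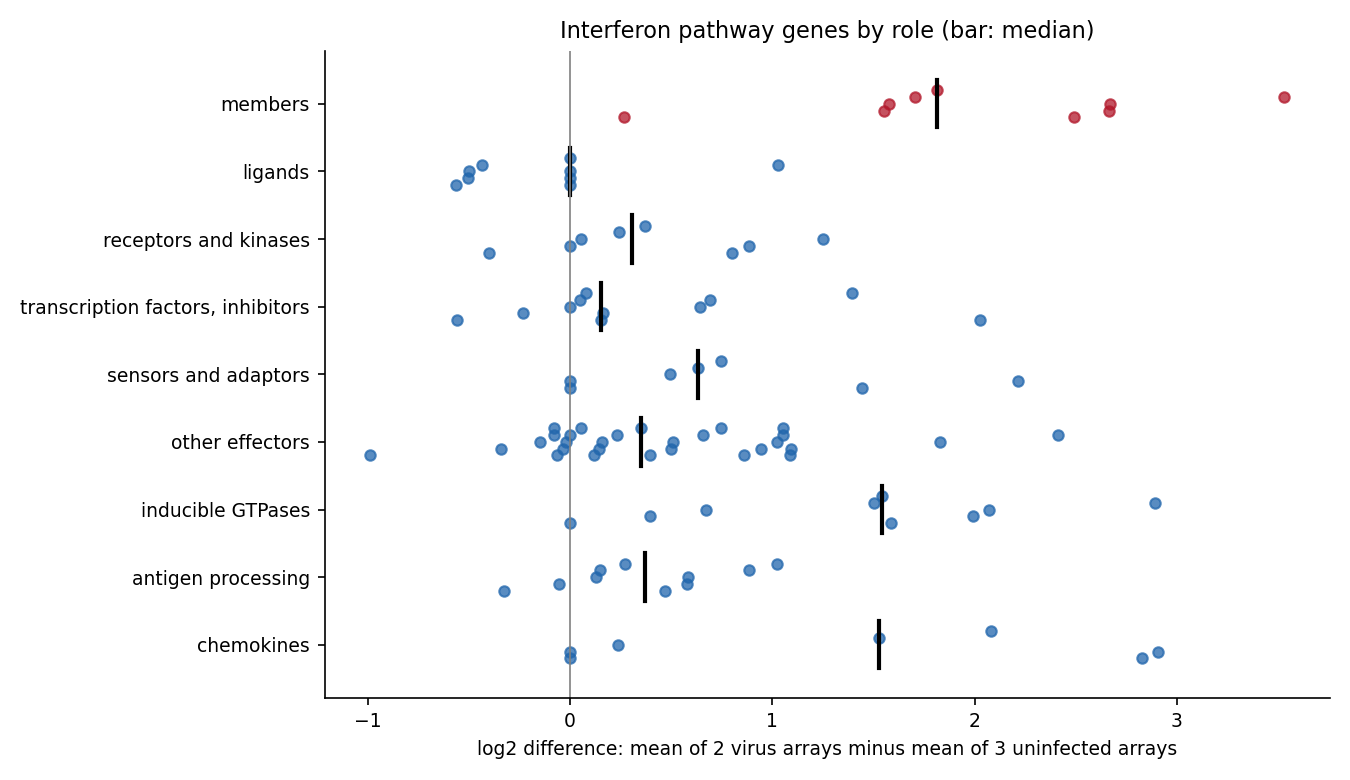
Difference of mean log2 intensity, the 2 virus arrays minus the 3 uninfected arrays (horizontal axis), for each measured gene of the members (red) and of the 8 other interferon lists (blue), with readings under the floor set to it. Black bars are medians, 1.81 for the members, 1.54 for the GTPases, 1.53 for the chemokines and 0 for the ligands.

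Genes with a pattern like that of the members were sought over the 5 arrays. The centred log2 values of the 8 members that reached 39.6 were averaged, and 4394 other genes reaching 79.2 in some array were ranked by their root mean square difference from that average. The 10 closest were Dio2 (0.19), Trim30a (0.21), Ms4a4d (0.24), Man1a (0.26), Ifi47 (0.29), Ifih1 (0.31), Nampt (0.34), Gm9706 (0.36), Iigp1 (0.41) and Gbp3 (0.41), in log2 units. Of the 10, 5 were in the interferon lists, which held 64 of the 4394 genes. Those lists were chosen with earlier results of these data known, so this count is not independent of the data. The members themselves stood between 0.34 (Ifit1) and 0.89 (Ifi202b) from their average, which they set, so part of that closeness is built in. The ranked genes had no part in the average, and their median difference was 1.24. Dio2, the enzyme that activates thyroid hormone, read 14.5, 10.6 and 40.8 without virus, 110 with GFP and 184 with deltaNFAT. Nampt, which makes a precursor of NAD, read 15.1, 30.4 and 43.3 without virus, 142 with GFP and 164 with deltaNFAT.

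**Figure D5:**
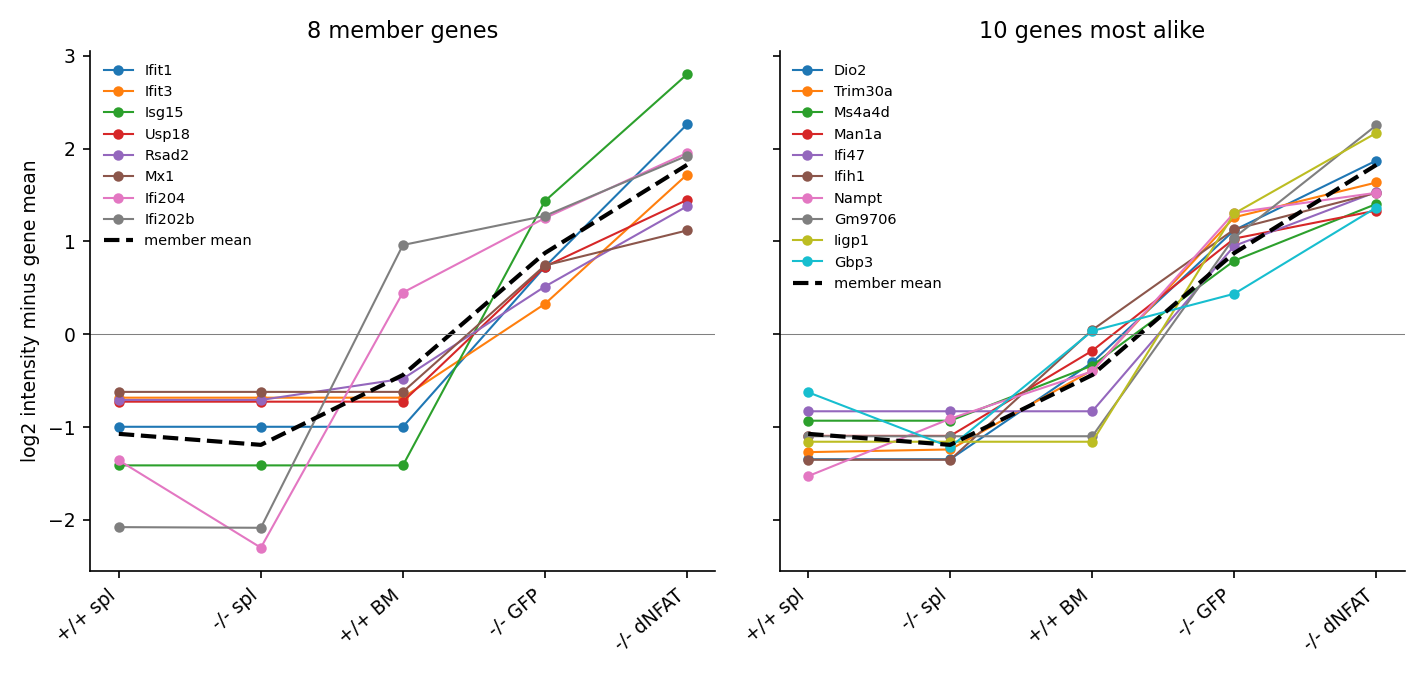
Log2 intensity minus each gene's mean over the 5 arrays, for the 8 members that reached 39.6 (left) and the 10 genes closest to their average (right), with lines joining the arrays only to follow a gene. The dashed line is the members' average, which runs from -1.19 in Fos-/- spleen to 0.88 with GFP and 1.83 with deltaNFAT; Ifi204 and Ifi202b leave it upward in bone marrow.

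Some cell markers did not overlap between virus and uninfected arrays. Of the 5567 genes with an array at 39.6 or more, 14.0% lay so to the higher side and 21.1% to the lower. In whole dishes more cells of a kind and more RNA per cell cannot be told apart. The summed intensity of 4 pan-haematopoietic markers was 1780 to 2014 without virus and 2125 to 2315 with virus, and Ptprc (at most 80.5 against 109 and 120) and Cd53 (at most 324 against 486 and 560) did not overlap. The other 2 did: Laptm5 read 1227 to 1581 without virus, 1595 with GFP and 1296 with deltaNFAT, and Coro1a 89.0 to 149 without virus, 125 with GFP and 149 with deltaNFAT. The sum of 9 macrophage markers ran from 6369 to 7732 without and from 8504 to 8694 with virus. Mrc1 was the 1 marker higher without overlap, at most 596 without virus against 1045 with GFP and 1140 with deltaNFAT. The sums thus show no rise of the whole list. Cd68 was lower without overlap, at 1070 with deltaNFAT against at least 1097 without virus, but its GFP and Fos-/- spleen readings were level, and the other 7 overlapped. The 5 B cell markers summed to 534 to 599 without and 350 to 379 with virus. Of them 4 were lower without overlap, and Cd22 was under the floor everywhere. The 5 dendritic cell markers summed to 261 to 278 against 170 to 198, with Ccr7 and H2-Aa under the floor everywhere. Itgax and Flt3 were lower without overlap, and H2-Eb1 overlapped. Stromal sums (11157 to 13147 against 12801 to 13238) overlapped, as did those of neutrophil (1358 to 9614 against 4670 to 6877), T and NK cell (143 to 482 against 164 to 217), osteoclast (1771 to 13444 against 1738 to 3514) and erythroid markers (63.4 to 97.3 against 70.1 to 123). In the lists with overlapping sums, Col1a2 was higher without overlap (at most 2176 without virus against 2366 and 2432). Pdgfrb (at least 139 against 115 and 85.4) and Gzmb (at least 33.8 against -1.30 and 28.4) were lower. The part of these markers in the members' levels was not tested.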

How the data were processed

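The deposited table holds linear intensity values, 1 per probe set in each array. How the authors computed them is not given in the sources used, and the labels name no software. The deposited intensity values had a trimmed mean (without 2% at each end) of 100.1 in every array, and 20.3 to 22.4% of an array's values were at or below 0. Each array was scaled to an equal trimmed mean, which moved none visibly. Values under the 40th percentile of all values (19.8) were raised to that level before taking log2. Gene names came from the platform annotation (10855 probe sets with 1 symbol, 396 with several and unnamed, 1237 with none), and the brightest probe set stood for a gene. Groups came from the sample titles. With 1 array per group no test was possible, and the number of arrays limits the precision. The members and lists were chosen with earlier results of these data known. Besides the members, named genes were the 4 brightest of each interferon list, the 4 with the widest gap among those reaching 79.2, and the 10 of closest pattern. Alternatives changed scaling, floor, probe sets and arrays. The steps were checked on simulated data (Python 3.11.15, numpy 2.4.6, pandas 2.3.3). The genes raised there read 79.2 or more in Fos-/- spleen without virus. All members read lower in that array, so the check does not cover their range.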

Additional observations from a re-analysis of the deposited data

How the results depend on the processing

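The planned floor at the 20th percentile could not be run because that percentile lies below 0 (-1.20); a floor of 10 and a floor at the noise level (98.8) were added after seeing the data. With the 60th percentile as floor (65.1), 1 member was counted between virus and uninfected arrays, the members' median log2 gap was 0, their median log2 ratio to Fos-/- spleen without virus was 0 with GFP and 0.68 with deltaNFAT, and 3 other interferon genes were counted. At the noise level these values were 0, 0, 0, 0.084 and 2. The number of genes in all counted higher was then 16 and 9, in place of 39, because fewer readings clear the floor. Leaving out 1 array at a time gave 4 to 8 members, a median gap of 0.99 to 1.86 and 10 to 18 other interferon genes. The highest member count, 8, came without bone marrow, where 332 genes in all were counted, and the 18 came without the GFP array. Values as deposited, quantile normalization, the mean of all probe sets, unsuffixed probe sets and the floor of 10 gave 5 or 6 members, although the floor of 10 raised the median gap to 1.94 and the median ratios to 2.44 with GFP and 3.39 with deltaNFAT. Of the members, Ifi204 has no unsuffixed probe set. The members' median log2 ratio of deltaNFAT to GFP was 0.65 at the floor of 65.1 and 0.084 at the noise level, in place of 0.72. In the mean of its probe sets Ifi204 had log2 ratios of 1.07 (GFP) and 1.88 (deltaNFAT) to Fos-/- spleen. No log2 value of 1 or more fell below 0 under these settings. Where the uninfected readings lay under the floor, a gap or ratio to them could not do so. Counts and smaller log2 values were not judged in this way. No paired analysis was possible because each group had 1 array.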
